A study of Danio rerio with 2 samples.

Results

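The proteasome subunit genes of the zebrafish were examined in sorted cells of control and *hsd17b7* mutant larvae. Members were taken by name, as every feature whose symbol starts with psma, psmb, psmc, psmd, psme, psmf or psmg followed by a digit. This gave 57 of the 32059 features counted. By role they are 9 alpha ring genes, 7 constitutive beta ring genes, 7 beta genes of the immune type (*psmb8a*, *psmb9a*, *psmb10*, *psmb11a*, *psmb11b*, *psmb12* and *psmb13a*), 7 ATPase genes, 4 other base genes, 9 lid genes, 6 activator and inhibitor genes and 6 assembly chaperone genes. The remaining 2, *psmc3ip* and *psme3ip1*, match the name but encode proteins that interact with a subunit. *PSMD4* and *psmb11a* had 0 UMIs (unique molecular identifiers, each counting 1 captured transcript) in every cell class described here, and 1 member had none in either library.

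The proteasome is the protease that degrades ubiquitin-tagged proteins. Its barrel is built from alpha rings, which close the ends, and beta rings, in which *psmb6* encodes the caspase-like, *psmb7* the trypsin-like and *psmb5* the chymotrypsin-like active subunit. The regulatory particle caps the barrel: the ATPases of its base (*psmc* genes) unfold the substrate, ubiquitin receptors such as the *psmd4* products bind it, and the lid, with the deubiquitinase encoded by *psmd14*, removes the ubiquitin. In mammals, interferon can lead to exchange of the active subunits for those encoded by *PSMB9*, *PSMB10* and *PSMB8*, and *PSMB11* is used in the thymus. The PA28 activator (*psme1* and *psme2*) and the PA200 activator (*psme4a* and *psme4b*) can replace the regulatory particle.

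Cells carrying membrane-bound GFP from *Tg(Brn3c:mGFP)* were sorted from larvae at 4 dpf, and 1 single-cell 3′ library was made per genotype, control (labelled wild-type) and *hsd17b7* mutant. Both groups carry the reporter, and the sample labels used here name no treatment. The mutant line of the study is a CRISPR/Cas9 frameshift allele of *hsd17b7*, an enzyme of cholesterol synthesis. The number of larvae behind each library is not given in the sources used here. With 1 library per group no test between genotypes is possible: the intervals below are 95% intervals of counting error only, and a ratio compares these libraries, not the genotypes. Counting used Cell Ranger 7.1.0 (control) and 9.0.1 (mutant), as the file headers state, and genotype cannot be told apart from this change of version.

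The control library held 180590990 UMIs in 19270 barcodes and the mutant library 81920586 in 10119. After barcodes with under 500 genes or over 20% mitochondrial UMIs were left out, 17385 and 8322 cells remained, with medians of 7491 and 6206 UMIs, and of 49 barcodes present in both deposited libraries 44 (control) and 42 (mutant) were kept. Without them the summed HC ratio and the count of higher members given below stayed at 0.68 and 32. Levels are given as CPM, the UMIs of a gene per 1000000 UMIs of the same cells. Classes were set by marker UMIs per cell, and a cell could pass several gates. HCs (hair cells, *myo6b* at 3 or more) numbered 1414 (control) and 1185 (mutant), SCs (supporting cells, *stm* at 1000 CPM or more) 799 and 359, and neurons (*elavl3* present) 3861 and 3978. Macrophages (*mfap4* or *mpeg1.1* present) numbered 498 and 505, hepatocytes (*tfa* and *fabp10a* at 2 or more each) 1289 and 767, and blood cells (globin at 200000 CPM or more) 6013 and 1. Every marker of a class's own list that the gate had not used was detected in that class. Detection alone does not tell the classes apart, since all 10 HC markers were also detected in hepatocytes of both libraries. Leaving out the lone mutant blood cell, which passed another gate too, some cells of every class did so, from 7.62% of control blood cells to 38.4% of control macrophages. Markers of other cells were found in every class. The summed level of 9 hepatocyte markers in HCs was 4682 CPM for control and 10982 for mutant cells, and its part in the HC values was not tested. Globin took 13% of the control and 0.00985% of the mutant UMIs. The *hsd17b7* level in HCs was 114 CPM for control and 216 for mutant cells, which does not check the label, since a frameshift allele can still be transcribed.

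Summed over the members, proteasome UMIs were 1.60-fold higher in mutant than in control HCs. The level was 3231 CPM (3208 to 3254) in control HCs and 5175 CPM (5141 to 5209) in mutant HCs, a log2 ratio of 0.68 (0.67 to 0.69). Per cell, the median was 2886 CPM with quartiles of 1849 and 4058 for control and 4320 CPM with quartiles of 2727 and 6470 for mutant cells, so the middle ranges of the cells overlapped. SCs stood at 2365 and 3458 CPM, a log2 ratio of 0.55 (0.52 to 0.58). Macrophages stood at 2895 and 3587 CPM, a log2 ratio of 0.31 (0.28 to 0.34). Neurons differed less, with 2722 and 3053 CPM and a log2 ratio of 0.17 (0.15 to 0.18). Hepatocytes were level, with 2769 and 2756 CPM and a log2 ratio of -0.01 (-0.02 to 0.01). In cells of no gate the sum was 2515 CPM for control and 3330 for mutant cells. The differences between these classes were not tested, since each rests on the same pair of libraries.

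**Figure D1:**
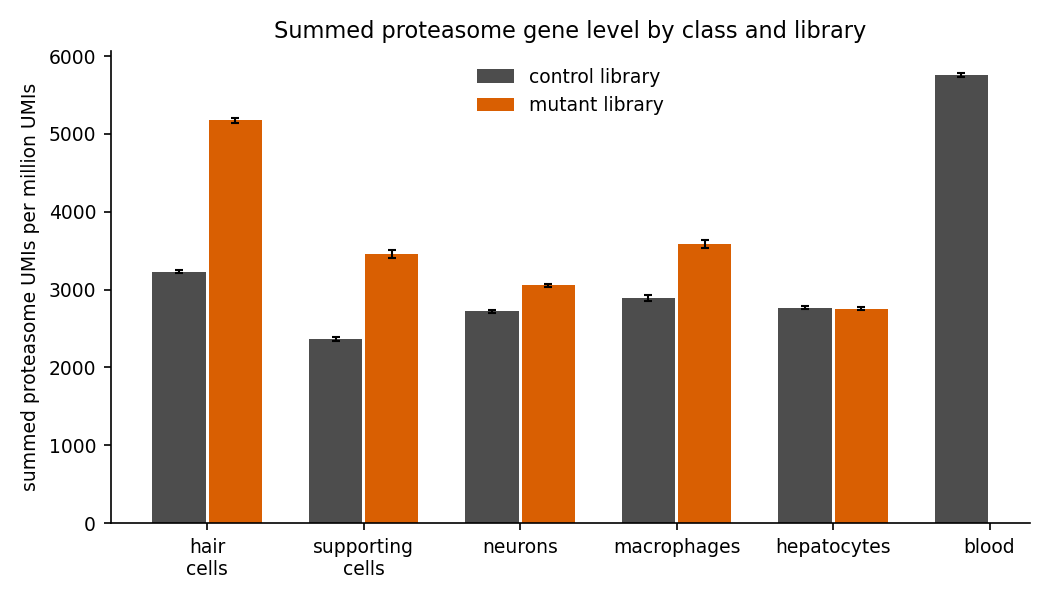
Summed UMIs of the 57 proteasome genes in CPM (y axis) in each cell class (x axis), for the control (grey) and mutant (orange) library; error bars are exact Poisson 95% intervals of counting error. HCs stood at 3231 and 5175, hepatocytes at 2769 and 2756, and control blood cells, which have no mutant bar, at 5756.

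Markers of other cells differed with the sums of SCs and neurons too. SCs held 2506 and 3129 CPM of the 10 HC markers and 2376 and 3327 CPM of 4 skin markers, beside 1494 and 3234 CPM of their own 8 markers. Neurons held 3876 and 10920 CPM of the 9 hepatocyte markers, more than the 2913 and 4153 CPM of their own 7 markers. Their part in these values was not tested.

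The SC and macrophage values depended on cells that passed several gates. Among cells that passed exactly 1 gate the log2 ratio of the sum was 0.77 in HCs, 0.23 in SCs and 0.61 in macrophages. In HCs, 10 of 10 HC markers that the gate did not use were detected in both libraries, and their summed level was 9279 CPM for control and 16411 for mutant cells, while *myo6b* was at 712 and 754 CPM. The largest part of that sum was *s100t*, at 5134 and 8175 CPM. *pvalb8* was at 827 and 3273 CPM, and *pcdh15a* alone was lower in the mutant library, at 990 and 624 CPM. The part of this difference in marker level in the proteasome result was not tested. Among HCs with 3 or more *otofb* UMIs (*otofb* encodes an otoferlin of the HC synapse), a choice made after seeing the data, the proteasome sum was 3407 and 5471 CPM.

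The higher level in mutant HCs was spread over most of the core and regulatory particle. Of the 57 members, 49 had at least 100 UMIs over both libraries of HCs. Of these, 44 had a ratio above 0, where 45.0% of all genes had. In the mutant library 32 were 1.5-fold or more higher, against 15.9% of the 15584 genes with as many UMIs. Of the same 49, 2 members were 1.5-fold or more lower, where 28.9% of all genes were. The median log2 ratio of the members was 0.69 with quartiles of 0.46 and 0.81, and that of all genes was -0.09.

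**Figure D2:**
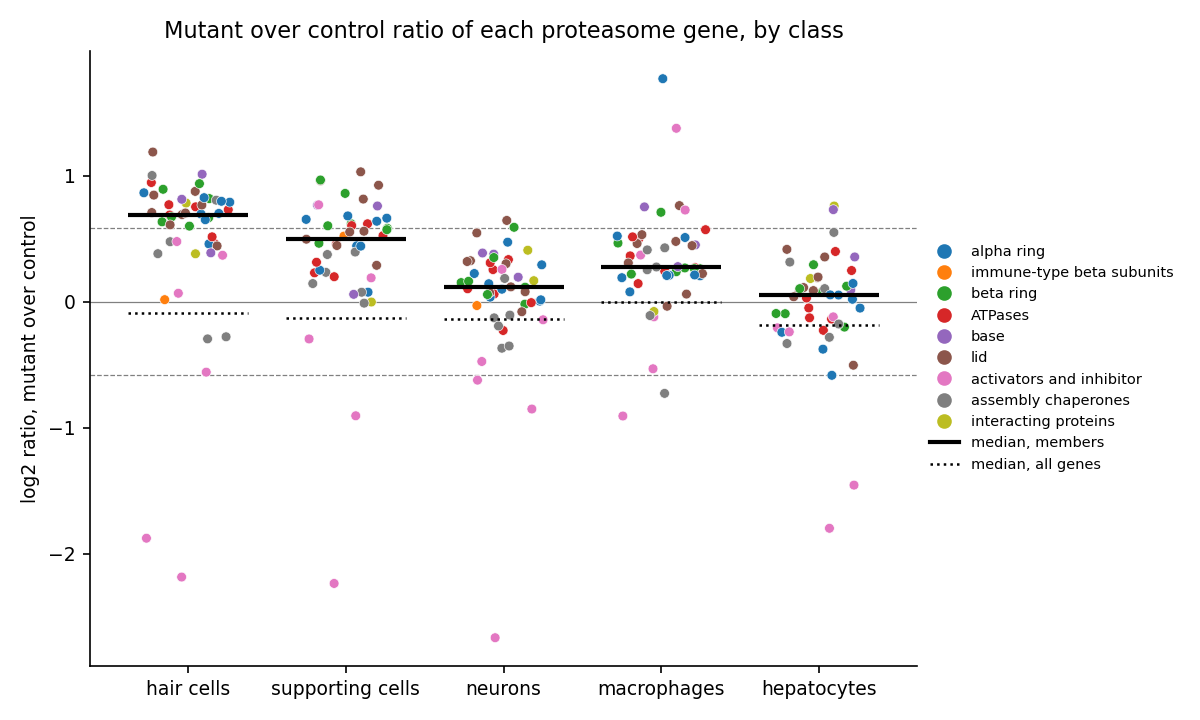
Log2 ratio of mutant over control (y axis) of each proteasome gene with at least 100 UMIs, 1 point per gene coloured by role, in 5 classes (x axis); solid bars are medians of the members, dotted bars medians of all genes, and dashed lines mark 1.5-fold. The HC points gather around a median of 0.69, the hepatocyte points around 0.05, and *psme1* lies lowest in 4 of the classes.

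All 8 tested alpha ring and 7 constitutive beta ring genes were higher in mutant HCs. The alpha ring sum was 882 CPM for control and 1446 for mutant cells, and 7 of its 8 tested genes passed 1.5-fold (15.9% of all genes). Within it *psma3* was the highest, at 117 and 212 CPM (log2 ratio 0.86, 0.79 to 0.94), and *psma2* the lowest, at 128 and 176 CPM (0.46, 0.39 to 0.53). The gene with the most UMIs, *psma8*, was at 170 and 267 CPM (0.65, 0.59 to 0.71). All 7 constitutive beta genes passed 1.5-fold, and their sum was 934 and 1579 CPM. *psmb2*, a structural beta subunit, had the highest ratio, at 64.6 and 124 CPM (0.94, 0.84 to 1.03).

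The genes of all 3 active subunits were higher. The trypsin-like *psmb7*, which had the most proteasome UMIs in HCs, was at 246 and 456 CPM (log2 ratio 0.89, 0.84 to 0.94). The caspase-like *psmb6* was at 106 and 187 CPM (0.82, 0.74 to 0.89). The chymotrypsin-like *psmb5* was at 80.1 and 121 CPM (0.60, 0.51 to 0.69). Its interval lay below those of the other 2 active subunits.

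**Figure D3:**
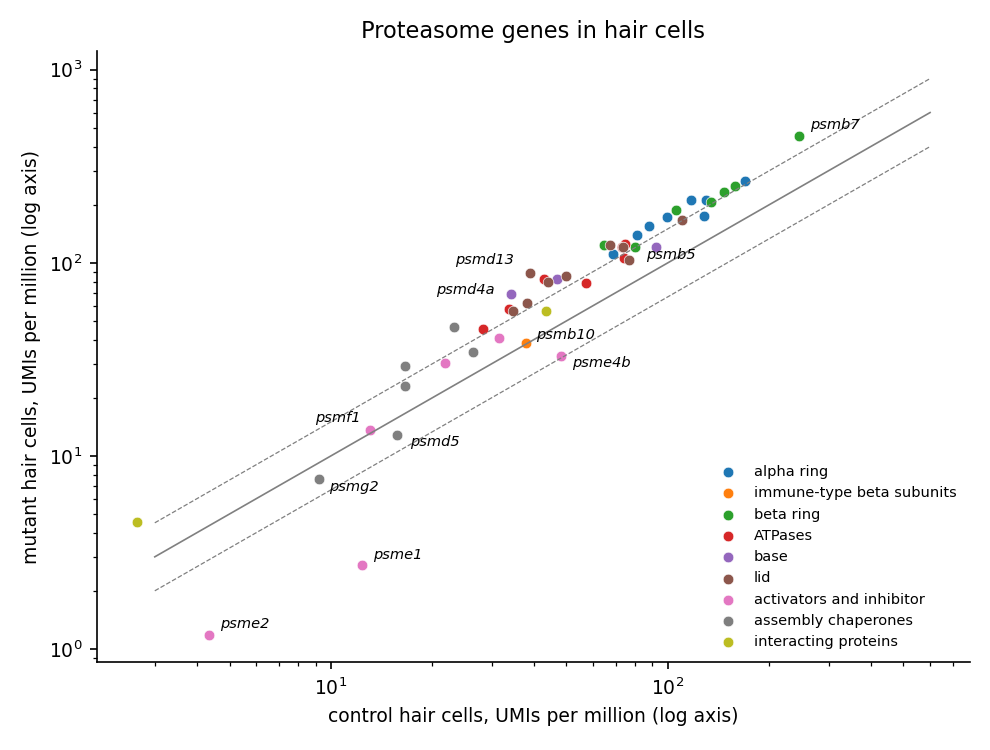
Level of each tested proteasome gene in control HCs (x axis) against mutant HCs (y axis), in CPM on log axes, coloured by role; the solid line marks equal levels and the dashed lines 1.5-fold. Most core and regulatory genes lie on or above the upper dashed line, *psmb10* lies on the line of equality, and *psme1* and *psme2* lie far below it.

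In the regulatory particle all 19 tested base and lid genes had a ratio above 0, where 45.0% of all genes had. The 7 ATPase genes summed to 384 CPM for control and 617 for mutant cells. The ATPase *psmc2* was the highest of them, at 42.8 and 82.5 CPM (log2 ratio 0.95, 0.83 to 1.06), *psmc3* the lowest, at 57.3 and 78.8 CPM (0.46, 0.35 to 0.57), and *psmc4*, with the most UMIs, was at 74.6 and 126 CPM (0.75, 0.66 to 0.84). Both genes of the ubiquitin receptor were higher, *psmd4a* at 34.1 and 68.8 CPM (1.01, 0.88 to 1.14) and *psmd4b* at 46.9 and 82.4 CPM (0.81, 0.70 to 0.93). The scaffold *psmd1* was at 92.0 and 120 CPM (0.39, 0.30 to 0.48), the lowest of the base.

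The lid held the highest ratio of all members in HCs. *psmd13*, a structural lid subunit, was at 39.1 and 89.0 CPM (log2 ratio 1.19, 1.07 to 1.31). The deubiquitinase *psmd14* had the lowest ratio of the lid, at 76.5 and 104 CPM (0.44, 0.35 to 0.54), and *psmd3*, with the most UMIs, was at 110 and 167 CPM (0.61, 0.53 to 0.69). The lid sum was 534 and 887 CPM, and 8 of its 9 genes passed 1.5-fold (15.9% of all genes).

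The assembly chaperones, which are absent from the finished complex, were mixed. *psmd9*, a chaperone of the base, was at 23.1 and 46.3 CPM (log2 ratio 1.00, 0.84 to 1.16). *psmd5*, another chaperone of the base, was at 15.7 and 12.8 CPM (-0.30, -0.54 to -0.05). Of the 6 genes, 2 passed 1.5-fold upward (15.9% of all genes) and 4 had a ratio above 0 (45.0% of all genes). Their sum was 108 CPM for control and 153 for mutant cells.

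Genes that work with the proteasome were listed too, and 22 of the 24 symbols were found, all with enough UMIs in HCs. Of these, 14 had a ratio above 0, where 45.0% of all genes had, 6 passed 1.5-fold upward (15.9% of all genes) and 2 downward (28.9%). Their median log2 ratio was 0.13, below that of the subunits. The highest was *usp14*, a deubiquitinase bound to the base, at 13.8 and 26.2 CPM (log2 ratio 0.93, 0.72 to 1.14). The lowest was *nfe2l1a*, at 18.4 and 8.07 CPM (-1.19, -1.48 to -0.91). It is a zebrafish ortholog of the factor that in mammals drives proteasome genes when the protease is inhibited. Its paralog *nfe2l1b* was at 88.8 and 70.6 CPM (-0.33, -0.44 to -0.23). The maturation factor *pomp* was at 161 and 258 CPM (0.67, 0.61 to 0.74), near the median of the subunits. The lid component *sem1* was at 110 and 190 CPM (0.79, 0.72 to 0.87), near their upper quartile of 0.81.

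The activator and inhibitor genes were mixed, with 3 of 6 above 0 in HCs, where 45.0% of all genes were. In HCs *psme1* was at 12.4 CPM in the control (299 UMIs) and 2.73 CPM in the mutant library (46 UMIs), a log2 ratio of -2.18 (-2.67 to -1.73). *psme2*, its partner, was at 4.35 and 1.19 CPM (105 and 20 UMIs), a log2 ratio of -1.88 (-2.64 to -1.18). These were the 2 members that passed 1.5-fold downward. *psme3*, the nuclear PA28 form, was at 21.9 and 30.4 CPM (0.48, 0.30 to 0.66), and the inhibitor *psmf1* at 13 and 13.6 CPM (0.07, -0.18 to 0.32).

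In macrophages both PA28 genes were higher in the mutant library. *psme1* was at 28.1 CPM for control and 46.4 for mutant cells (log2 ratio 0.73, 0.46 to 1.00), and *psme2* at 13.6 and 35.2 CPM (1.38, 1.02 to 1.75). The summed level of 11 macrophage markers in this class was 1151 and 2745 CPM, and its part in these values was not tested. *psme1* had a ratio of -2.24 in SCs, -2.67 in neurons and -1.80 in hepatocytes. That of *psme2* was -0.85 in neurons, but 0.89 (0.17 to 1.59) in SCs, from 45 and 30 UMIs. In hepatocytes *psme2* had a ratio of -0.56 (-1.30 to 0.14), from 57 and 25 UMIs. Blood cells of the control library carried the most *psme1*, 7940 UMIs or 181 CPM, which no other class of either library reached.

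The *psme1* level of the control classes followed their globin level, both being lowest in hepatocytes and highest in blood cells. Globin stood between 15690 CPM (hepatocytes) and 52053 CPM (macrophages) in the 5 other control classes, and between 1.61 CPM (SCs) and 207 CPM (neurons) in the mutant ones. Per 100000 globin UMIs, *psme1* had 37.6 UMIs in control blood cells and between 43.1 (hepatocytes) and 57.5 (SCs) in the other control classes. *psme2* had 5.78 UMIs per 100000 globin UMIs in control blood cells and between 11.2 and 26.1 in the others. *psmb7*, by comparison, had 102 in blood cells and between 399 and 1295 in the others. Cells that passed several gates are part of these control values. Among control cells of exactly 1 gate, *psme1* was at 5.61 CPM in hepatocytes, 6.91 in SCs, 9.47 in neurons and 10.6 in HCs. It was at 25.5 CPM in such macrophages and 189 CPM in such blood cells, and the globin of these cells is not given here. The part of blood RNA in the lower *psme1* of mutant HCs was not tested.

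**Figure D4:**
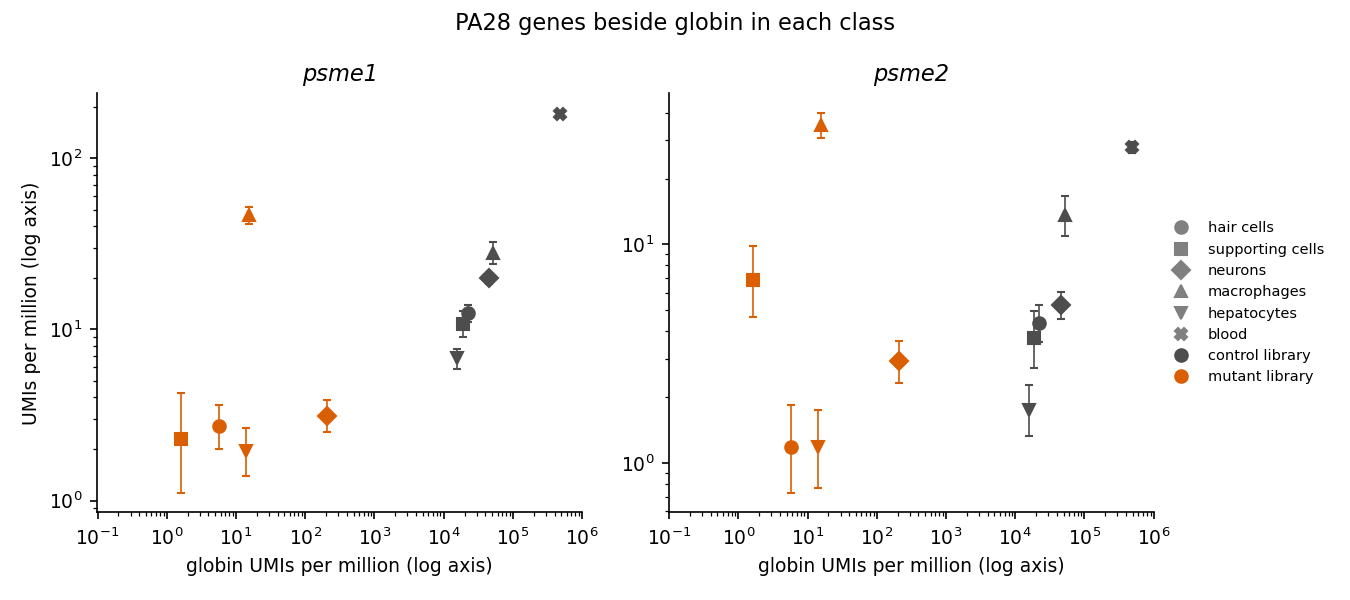
Level of *psme1* (left) and *psme2* (right) against globin, in CPM on log axes, for each class (marker shape) of the control (grey) and mutant (orange) library; bars are exact Poisson 95% intervals. The control classes lie higher in *psme1* with more globin, up to blood cells at 181 CPM of *psme1*, and mutant macrophages stand apart at 46.4 CPM with 15.7 CPM of globin.

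The paralogs of the PA200 gene differed by class. In HCs *psme4a* was at 31.6 and 40.7 CPM (log2 ratio 0.37, 0.22 to 0.52) and *psme4b* at 48.3 and 32.8 CPM (-0.56, -0.71 to -0.41), so the *psme4a* share of their UMIs was 39.5% (37.3 to 41.7) for control and 55.4% (52.6 to 58.2) for mutant cells. In hepatocytes the share was lower in the mutant library, at 35.8% and 18.1%, with *psme4a* at 16.2 and 5.93 CPM (-1.46, -1.75 to -1.17). The *psmd4a* share of *psmd4a* plus *psmd4b* was 42.1% for control and 45.5% for mutant HCs. In hepatocytes it was 50.7% (48.3 to 53.2) and 61.6% (59.0 to 64.1). Reads of near-identical paralogs may be split between them in ways the counts do not show.

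Outside HCs fewer members passed the fold rule. In SCs, 17 of 47 tested members were 1.5-fold higher in the mutant library, against 17.0% of all genes, and 2 were lower, against 32.2%. Their median log2 ratio was 0.50 and that of all genes -0.13. *psmd13* (27.0 and 55.1 CPM, log2 ratio 1.03, 0.78 to 1.27) and *psmb7* (179 and 350 CPM, 0.97, 0.87 to 1.06) had the highest ratios there. Among SCs that passed exactly 1 gate the median of the members was lower, as given below. The count of 17 was not repeated in those cells.

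In macrophages, 6 of 48 members were higher, against 19.4% of all genes, and 2 lower, against 24.2%, with a median log2 ratio of 0.27 beside -0.01 for all genes. The highest was *psma6l*, an alpha subunit paralog, at 4.42 and 15.1 CPM (29 and 98 UMIs, log2 ratio 1.77, 1.16 to 2.42). The summed level of 11 macrophage markers in this class was 1151 CPM for control and 2745 for mutant cells, and that of 9 hepatocyte markers was 8581 and 18618 CPM. Their part in the macrophage values was not tested.

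In neurons 2 of 49 members were higher, against 14.2% of all genes, and 3 lower, against 29.0%. The median log2 ratio was 0.11, beside -0.14 for all genes, and the 2 higher members were *psmd11a* (0.64) and *psmb2* (0.59). With globin and mitochondrial UMIs left out of the total, 0 members passed. In hepatocytes 2 of 47 were higher, against 13.6% of all genes, and 2 lower, against 31.5%, with a median of 0.05 beside -0.19. The ratio of *psmd13* was 0.42 there and that of *psmb7* 0.10, both below their values in HCs.

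Within HCs the proteasome sum differed between subsets. HCs with more *lhfpl5b* than *lhfpl5a* UMIs, the pattern of the lateral line, numbered 101 and 65, and their sum was 3475 CPM (3387 to 3566) for control and 7288 CPM (7120 to 7459) for mutant cells. HCs with more *lhfpl5a*, the pattern of the inner ear, numbered 846 and 773, with 3461 CPM (3431 to 3492) and 5639 CPM (5595 to 5684). The control values of both subsets overlapped within counting error, while the mutant values did not. The log2 ratio of the sum was 1.07 (1.02 to 1.12) in the first and 0.70 (0.69 to 0.72) in the second. Over the 36 tested members of the first the median was 1.17, beside -0.12 for all 3821 tested genes. Over the 47 tested members of the second it was 0.70, beside -0.07 for all 12889 tested genes. These medians rest on unlike sets of members. HCs with equal UMIs of both genes, 467 and 347 in number, stood at 2768 and 3702 CPM. There the median log2 ratio of the tested members was 0.42, beside 0.01 for all genes.

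HCs with *atoh1a*, the transcription factor of young HCs, stood higher than those without it. The 677 control and 667 mutant HCs with at least 1 *atoh1a* UMI had sums of 3689 CPM (3654 to 3724) and 6392 CPM (6342 to 6443). The 737 and 518 HCs without it had 2818 CPM (2789 to 2847) and 3588 CPM (3544 to 3631). The log2 ratio of the sum was 0.79 with and 0.35 without *atoh1a*. The median ratio of the tested members was 0.82 with and 0.34 without it, beside -0.07 and -0.04 for all genes. Median depths were 14966 and 13169 UMIs with it and 13911 and 11083 without it. Cells of the HC gate with no *otofb* UMI, 313 and 187 in number, stood at 2855 and 3884 CPM. The median ratio of the tested members was 0.48 there, beside -0.11 for all genes. Median depths of these cells were 15208 and 13128 UMIs, and whether all of them are hair cells was not tested.

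Among the immune-type genes, *psmb10* was higher in HCs than in every other class of its library. It encodes the immune form of the trypsin-like subunit, which takes the place of the *psmb7* product. In HCs it had 915 control and 647 mutant UMIs, 37.9 CPM (35.5 to 40.5) and 38.4 CPM (35.5 to 41.4). In SCs it was at 8.0 and 11.5 CPM, in neurons at 4.53 and 4.43, in macrophages at 4.57 and 8.61, in hepatocytes at 1.54 and 0.95, and in control blood cells at 3.21. The HC level was 24.7-fold that of hepatocytes among control and 40.5-fold among mutant cells, and 8.38-fold and 8.66-fold that of neurons. SCs that passed no other gate had 2.06 CPM (14 UMIs) and 0.41 CPM (1 UMI), while HCs that passed no other gate had 49.4 and 46.9 CPM. In the RefSeq annotation of GRCz12tu, a newer assembly than the one the authors used, the *psmb10* model overlaps another gene model, so its reads may be shared.

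The share of cells with a *psmb10* UMI was also highest in HCs. It was 35.1% (32.7 to 37.7) of control and 30.5% (27.9 to 33.2) of mutant HCs, at median depths of 14388 and 12339 UMIs. Hepatocytes, which were deeper at 23890 and 24507 UMIs, gave 2.64% and 2.35%, and neurons 2.90% and 2.09%. With every cell thinned to 4000 UMIs, 13.1% (11.4 to 15.0) of control and 14.3% (12.3 to 16.5) of mutant HCs had one, against 0.552% and 0.265% of hepatocytes. The thinning left out 44 control and 62 mutant HCs.

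Within HCs *psmb10* lay with the inner ear pattern and with *otofb*. HCs with more *lhfpl5a* had 58.6 CPM (842 UMIs) for control and 54.5 CPM (600 UMIs) for mutant cells. HCs with more *lhfpl5b* had 22.6 CPM (38 UMIs) and 13.2 CPM (13 UMIs). HCs with 3 or more *otofb* UMIs had 55.0 and 50.8 CPM, and those with none 1.78 CPM (11 UMIs) and 2.26 CPM (8 UMIs), below neurons. Since *psmb7* was higher in the mutant library and *psmb10* was not, the *psmb10* share of the UMIs of both genes in HCs was 13.4% (12.6 to 14.2) for control and 7.77% (7.20 to 8.36) for mutant cells. In the HCs with more *lhfpl5a* it was 18.4% and 10.0%, and in hepatocytes 0.75% and 0.43%. The log2 ratio of *psmb10* in HCs was 0.02 (-0.13 to 0.16), while those of the 7 constitutive beta genes lay between 0.60 and 0.94.

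**Figure D5:**
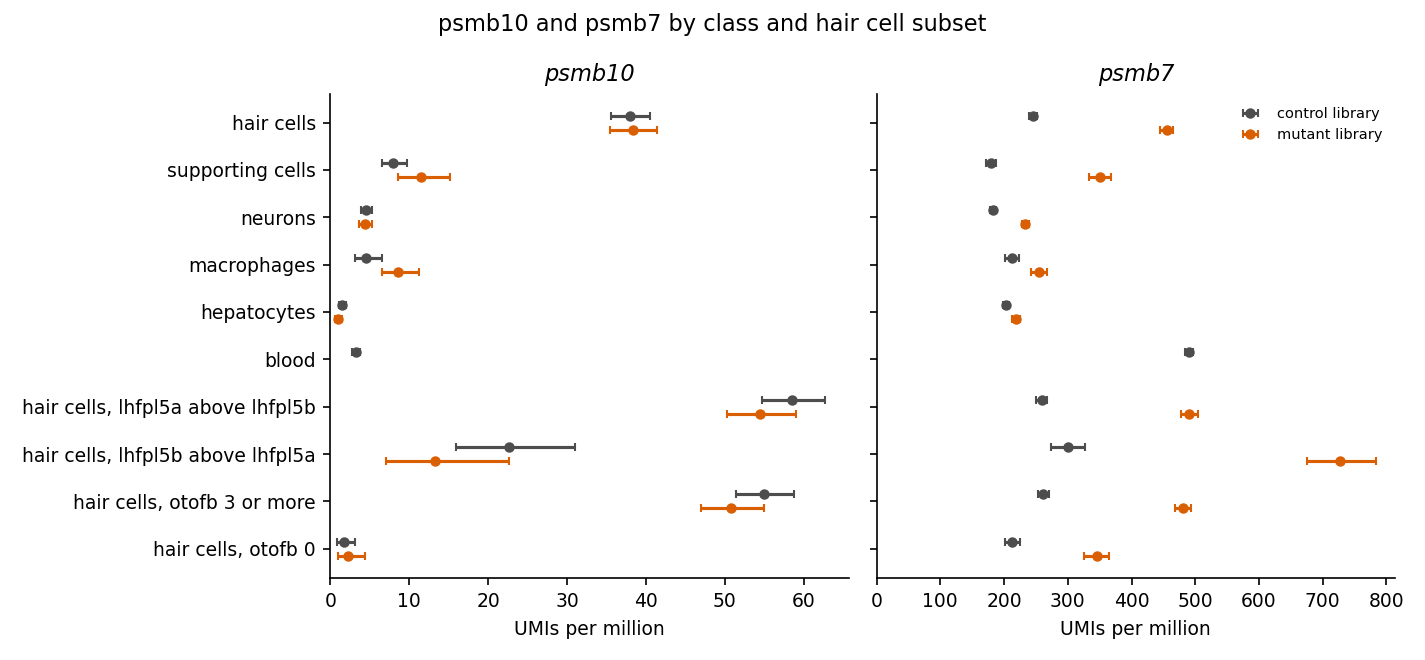
Level of *psmb10* (left) and *psmb7* (right) in CPM (x axis) by class and HC subset (y axis), for the control (grey) and mutant (orange) library; bars are exact Poisson 95% intervals. *psmb10* stands at 37.9 and 38.4 in HCs and under 12 in every other class, while *psmb7* is found in all classes and is at 246 and 456 in HCs.

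The other immune-type genes were nearly absent. *psmb8a* and *psmb9a*, the immune forms of the chymotrypsin-like and caspase-like subunits, had 2 and 3 UMIs in control HCs and 2 and 2 in mutant HCs. *psmb12* had 6 and 2 and *psmb13a* 1 and 0, where 0 UMIs allow up to 0.18 CPM by a floor of 3 UMIs. *psmb11a* had 0 in both libraries, and *psmb11b* 6 in control and 0 in mutant HCs, with a highest count of 27 in control hepatocytes. In GRCz12tu *psmb8a*, *psmb9a*, *psmb12* and *psmb13a* lie side by side with overlapping models, next to the peptide transporter *tap2a* and the class I gene *mhc1uba*, so reads may be shared between them. *psmb10* does not lie among them.

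Mutant macrophages were the class with the most of these genes. *psmb8a* had 19, *psmb9a* 13 and *psmb12* 8 UMIs there, 40 in all in 25 of 505 cells (4.95%, 3.23 to 7.22), beside 1 UMI in 1 of 498 control macrophages (0.20%, 0.01 to 1.11). Median depths were 10797 and 9950.5 UMIs. The summed macrophage markers also stood higher in mutant macrophages, and their part in these counts was not tested. The 25 cells had 183 CPM of *psme1*, 97.4 of *psme2*, 56.1 of *psma6l* and 47.2 of *psmb10*, beside 38.9, 31.8, 12.8 and 6.49 CPM in the other 480. The gate markers were higher in the 25 cells too, *mfap4* at 874 CPM beside 722 and *mpeg1.1* at 458 CPM beside 208. The part of this marker difference in the contrast of 25 and 480 cells was not tested. All 7 immune-type genes together reached 5.34 CPM (control) and 14.8 CPM (mutant) in macrophages, below HCs by a log2 ratio of -2.86 and -1.39, and in HCs *psmb10* made up nearly the whole sum.

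Genes of antigen presentation and the interferon response were counted beside them. Of the 22 found, 12 had enough UMIs in HCs, of which 1 was higher and 5 were lower by 1.5-fold (15.9% and 28.9% of all genes), with a median log2 ratio of -0.05. The highest was *calr*, an ER chaperone, at 166 and 250 CPM (0.59, 0.53 to 0.65), and the lowest *nlrc5*, in mammals the activator of class I genes, at 4.94 and 1.42 CPM (-1.79, -2.49 to -1.15). In macrophages 5 of 10 were higher and 2 lower (19.4% and 24.2% of all genes), with a median of 0.58. The highest there was *cd74b*, the class II invariant chain, at 5.34 and 28.9 CPM (35 and 188 UMIs), and the lowest again *nlrc5*, at 12 and 4.0 CPM (79 and 26 UMIs).

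Compared with the other classes of their own library, control HCs were not set apart by proteasome genes as a whole at 1.5-fold. Smaller differences were present. The median log2 ratio of the members was 0.46 over SCs (all genes 0.18) and 0.23 over neurons (all genes -0.03). It was 0.13 over macrophages (all genes 0.42) and 0.24 over hepatocytes (all genes 1.03). Of the members tested, 8 of 48 were 1.5-fold higher in control HCs than in SCs (29.4% of all genes), 5 of 49 than in neurons (24.0%), 6 of 48 than in macrophages (43.0%) and 12 of 49 than in hepatocytes (62.6%), below the background in each. In the mutant library 23 of 46 were higher than in SCs (41.8%), 35 of 49 than in neurons (27.2%), 19 of 50 than in macrophages (47.9%) and 39 of 47 than in hepatocytes (62.9%). *psmb10* had the highest ratio of the members in all 4 comparisons of the control library and in 3 of 4 of the mutant library, the exception being macrophages, where *psme4a* did (4.82-fold). *psme4a* was 2.62-fold and *psmd9* 1.87-fold higher in control HCs than in neurons, and 3.74-fold and 4.82-fold in the mutant library.

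Blood cells of the control library had a higher proteasome level than any other class. Their sum was 5756 CPM (5734 to 5779), and 11085 CPM of the UMIs that were not globin, which made up 48.1% of the total. Against them 5 of 49 members were 1.5-fold higher in control HCs, where 80.2% of all genes were, and 31 were lower, where 6.55% of all genes were. The sums of the alpha ring, beta ring and lid were 1344, 1998 and 1033 CPM in blood cells. *psmb10* was 11.8-fold higher in control HCs than in blood cells, and *psme4a* 3.84-fold. With blood cells set at 500000 globin CPM, 2725 cells remained and the sum was 9969 CPM of the UMIs that were not globin. The mutant library had 1 cell past this gate, so blood cells were not compared between libraries.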

How the data were processed

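The authors deposited UMI counts per gene and barcode as Cell Ranger wrote them (7.1.0 control, 9.0.1 mutant), without normalization; the submitters' processing notes name GRCz11 and Seurat. Here counts were read with Python 3.11.15 (numpy 2.4.6, scipy 1.17.1). Cells with at least 500 genes and at most 20% mt- UMIs were gated by marker UMIs, and each gene's UMIs in a class were expressed per 1000000 UMIs of that class (CPM; a 3′ assay, not divided by gene length). Intervals are exact 95% intervals (Poisson for CPM, conditional binomial for ratios, Clopper-Pearson for shares) and cover counting error only. Genes with at least 100 UMIs entered medians and counts at 1.5-fold. Scrublet (scanpy 1.11.5, expected rate 8%) marked 0 control and 1 mutant cell at its automatic threshold, so it had not worked and no cell was left out as a doublet. The study's sort gated against doublets, which does not cover cells captured together after the sort. Leaving out the 1294 control and 656 mutant cells with the highest scores was an alternative.

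Named members are all immune-type beta genes, *psmb5*, *psmb6*, *psmb7*, *psme1*, *psme2*, *psmd4b* and, by role, the highest and lowest ratio and the most UMIs in HCs; others named were chosen after their values were seen. Members, lists and gates were chosen with earlier results of these data known. Of the 57 identifiers, 56 matched the table of gene names and 55 symbols the RefSeq table (GRCz12tu), which was used for neighbouring genes only. The ratio function was tested on simulated data.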

Additional observations from a re-analysis of the deposited data

Results flagged for a closer look

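The PA28 genes had ratios of opposite sign in different classes, and the difference was not tested. The log2 ratio of mutant over control of *psme1* was 0.73 in macrophages, and -2.18 in HCs, -2.24 in SCs, -2.67 in neurons and -1.80 in hepatocytes. That of *psme2* was 1.38 in macrophages, and -1.88 in HCs and -0.85 in neurons. With under 100 UMIs, *psme2* was not counted in SCs, where its ratio was 0.89 (0.17 to 1.59), or in hepatocytes, where it was -0.56 (-1.30 to 0.14). No other member passed 1.5-fold upward in 1 class and downward in another.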

How the results depend on the processing

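No paired analysis was possible because there was 1 library per group, and for the same reason no replicate could be left out. Log2 ratios below are of mutant over control, for the summed members unless called a median, and no direction was called from a test. With cells of exactly 1 gate the ratio was 0.77 in HCs (median 0.79), 0.23 in SCs (median 0.12), 0.23 in neurons, 0.61 in macrophages (median 0.58) and -0.03 in hepatocytes. With cells thinned to 4000 UMIs it was 0.70 in HCs, 0.38 in SCs (median 0.34), 0.36 in macrophages and 0.05 in hepatocytes. With every cell weighted equally it was 0.43 in SCs, 0.10 in neurons (median 0.02), 0.34 in macrophages and 0.07 in hepatocytes. Without globin and mitochondrial UMIs it was 0.65 in HCs, 0.52 in SCs, 0.10 in neurons and 0.23 in macrophages (median 0.19). With stricter gates it was 0.76 in HCs, 0.20 in neurons, 0.43 in macrophages and -0.04 in hepatocytes. Relative to the median of all genes, the members' median was 0.78 in HCs, 0.62 in SCs, 0.25 in neurons and 0.24 in hepatocytes. The immune-type sum of macrophages over HCs in the control was -4.35 with exactly 1 gate, -3.50 thinned and -3.71 with equal weights. With blood cells set at 500000 globin CPM, globin was 59.3% of their UMIs. The number of members 1.5-fold higher lay between 29 and 33 in HCs (32 reported), and in neurons it was 0 without globin and mitochondrial UMIs and 4 relative to all genes (2 reported). No setting split HCs by *lhfpl5a*, *lhfpl5b* or *atoh1a*, and the members' median differed between those subsets, as given above.

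The following were chosen after seeing the data. Without the highest Scrublet scores the ratio was 0.70 in HCs, 0.52 in SCs, 0.21 in neurons, 0.28 in macrophages and 0.01 in hepatocytes, and the control immune-type sum was -3.56. With HCs of 3 or more *otofb* UMIs that sum was -3.39 for control and -1.80 for mutant cells. The cause of these shifts was not tested. Of 299 values of 23 named members in HCs over 13 settings, 267 stayed within counting error and 0 reversed. This tally includes settings that could not move the values. Limits of at least 300 or 30 UMIs only change which genes enter medians and counts. The automatic Scrublet threshold left out 0 control cells and 1 mutant cell. Depth limits *psmb8a*, *psmb9a*, *psmb11b*, *psmb12* and *psmb13a*, which had under 100 UMIs in every class.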

Other observations

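Germ cells were not among the gated classes. Cells with 5 or more UMIs of *ddx4*, which encodes a helicase of germ cells, were looked at after their values had been seen. The control library had 5 such cells and the mutant library 7. The 5 control cells had 13 UMIs of *psmb8a*, *psmb9a*, *psmb12* and *psmb13a* together, 8 of them *psmb12*, in 5 of 5 cells, or 86.5 CPM. Over all kept control cells these 4 genes had 53 UMIs in 44 of 17385 cells, or 0.30 CPM. The 7 mutant cells had 6 UMIs, 5 of them *psmb12*, all in 1 cell. *psmb10* had 9 of the 150330 UMIs of the control cells and 28 of the 197030 of the mutant cells. These shares were higher than in HCs, where *psmb10* had 915 of 24111320 and 647 of 16860805 UMIs. They rest on few cells and were not tested. *psma6l* had 8 and 25 UMIs in the *ddx4* cells.

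In the 25 mutant macrophages with a UMI of *psmb8a*, *psmb9a*, *psmb12* or *psmb13a*, the cathepsin gene *ctsl.1* was at 23018 CPM, beside 5021 CPM in the other 480. The chemokine gene *cxcl19* was at 3082 CPM, beside 823 CPM in the other 480. *b2m*, the light chain of class I molecules, was at 103 CPM (35 UMIs) and 17.4 CPM (107 UMIs). The gate markers *mfap4* and *mpeg1.1* were higher in the 25 cells too, as given above, and their part in these differences was not tested.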
